A study of Mus musculus with 6 samples.

Results

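The sites described here are the Rev-erbα binding sites of mouse liver that lie around 7 genes of lipid storage, fatty acid uptake and lipogenesis: Cidec, Plin2, Cd36, Fasn, Scd1, Elovl5 and Pnpla3. A site was taken when its centre fell in a fixed window around one of these genes on the mouse build mm9. The windows were 110 to 200 kb long and are defined by gene and coordinates, but they were proposed with the lists known. Of the 11767 peaks of the pooled chromatin immunoprecipitation sequencing (ChIP-seq) list, 21 were taken, and 6 of these 21 were also among the 3579 peaks of a second deposited list. The name of that second list calls its sites DBD-independent, where DBD stands for the receptor's DNA-binding domain. A peak of that list is called a listed peak in what follows. No sample is labelled with an altered DBD, so the name was not checked here.

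The study used an antibody against Rev-erbα on livers of male C57B/6 mice aged 12 weeks, kept on normal chow and a normal light/dark schedule. All livers were taken at zeitgeber time (ZT) 10, that is 10 h after lights on, and no treatment is named for either group. In 3 samples the genotype was wild type (WT) and in 3 it was HNF6 KO, which the design text also calls HNF6-depleted. The way in which HNF6 was removed, and from which cells of the liver, is not given in the sources used here. Both lists were deposited for the series as a whole, name no sample and hold no value for a single liver. Which livers stand behind each list is not stated. WT and HNF6 KO livers were therefore not compared, no spread between replicates can be given, and the sequencing depth behind each peak is unknown.

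Rev-erbα, encoded by Nr1d1, is a nuclear receptor of the circadian clock that represses transcription by recruiting the NCoR corepressor and the histone deacetylase HDAC3. It can bind DNA itself, at a hexamer motif with an A/T-rich flank or at a pair of such motifs, and it can also be held on chromatin by other factors, among which HNF6 is one known in liver. Liver that lacks Rev-erbα or HDAC3 accumulates fat, and genes of lipid synthesis and storage are among those it is known to restrain. The 7 genes cover successive steps of this biology. Cidec drives the fusion of lipid droplets, and Plin2 coats them. Cd36 takes up long-chain fatty acids. Fasn makes palmitate, Scd1 introduces a double bond into saturated fatty acids, and Elovl5 lengthens polyunsaturated ones. Pnpla3 is a lipase-like protein of the droplet surface that is linked to fatty liver.

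The Pnpla3, Scd1 and Elovl5 windows had the sites nearest the head of the pooled list. The windows of Fasn and of the storage and uptake genes had none before position 2290. The peak nearest the head in each window stood at position 123 for Pnpla3, 304 for Scd1, 391 for Elovl5, 2290 for Fasn, 2985 for Cidec, 4356 for Plin2 and 4368 for Cd36. The 8 peaks of the 3 synthesis windows had a median position of 2309, and 2 of them were listed. The 5 peaks of the Cidec and Plin2 windows had a median position of 4668, with 1 listed. The 3 Cd36 peaks had a median position of 6502, with 0 listed. In the Pnpla3 window 3 of 5 peaks were listed. Of all pooled peaks 30.4% were listed, and groups of 3 to 8 peaks are too small to set apart from that share. These group values rest on 1 to 3 genes each and were compared without a test, because peaks are not replicates and the windows were not chosen blind to the lists.

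**Figure D1:**
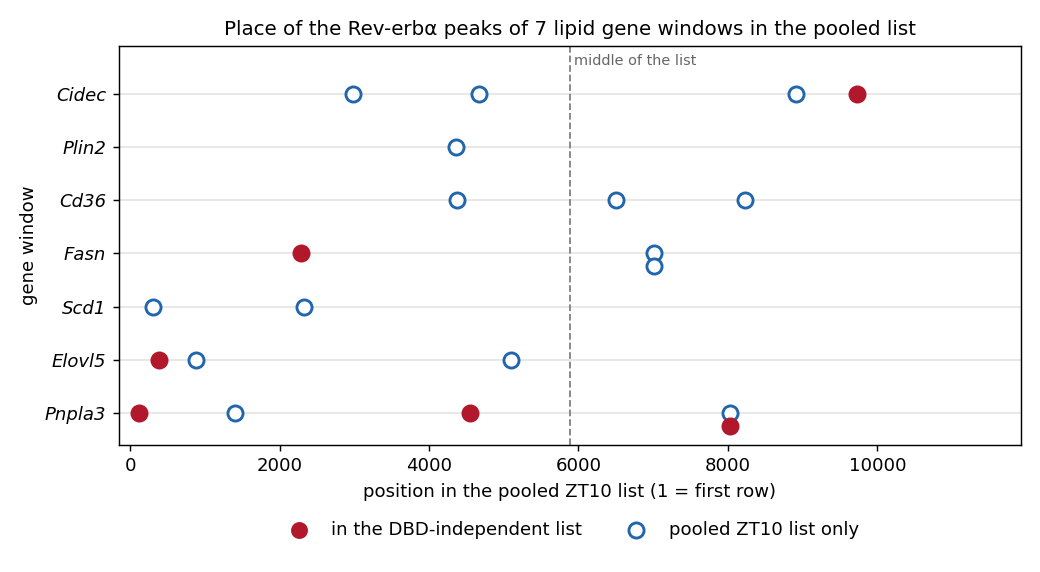
Position of each of the 21 peaks in the pooled ZT10 list (horizontal axis, row number), by gene window (vertical axis). Filled points are peaks also found in the DBD-independent list, open points are in the pooled list only, and points that would cover each other are drawn apart vertically. The Pnpla3, Scd1 and Elovl5 windows each have a peak before position 400, and 13 of the 21 peaks lie before the middle of the list.

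What a position means was read from the list itself. Its rows form 129 runs, and inside each run they are ordered by chromosome name and start, both read as text. A fall in this order occurred at 128 of 11766 neighbouring rows. Such an arrangement arises when rows are sorted on a value with many ties and tied rows are placed alphabetically, but that value is not in the file. Among the listed peaks the first of 2 values deposited with each of them fell along the runs (Spearman's rho -0.94 over 3579 peaks, which share their libraries). Reading an early run as a stronger site is therefore an assumption for the peaks without a value. Positions inside 1 run carry no order of strength. By this measure the leading Plin2 and Cd36 peaks, both in run 115, were tied. So were the leading Fasn peak and the second Scd1 peak, both in run 105. The 21 peaks fell into 15 runs between run 41 and run 127, with a median of run 116.

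**Figure D2:**
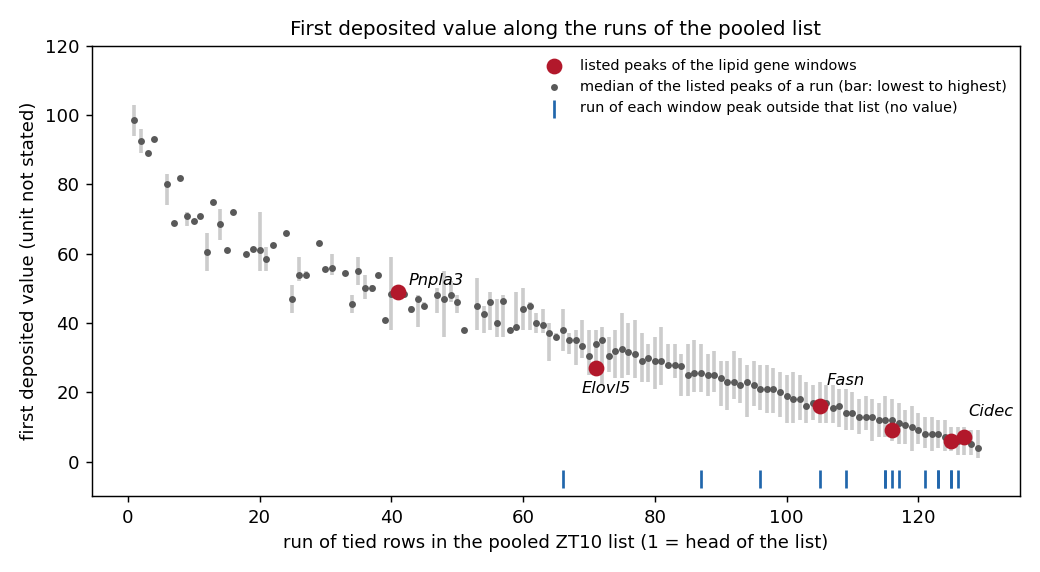
First deposited value (vertical axis, unit not stated) against the run of tied rows (horizontal axis, 1 is the head of the pooled list). Grey dots and bars are the median and the range of the listed peaks of each run, red points the 6 listed peaks of the lipid gene windows, and blue ticks the runs of the 15 window peaks that carry no value (ticks in the same run coincide, and the unlabelled red points are the other Pnpla3 peaks). The upstream Pnpla3 peak reached 49 in run 41, and the Cidec peak had 7 in run 127.

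The Pnpla3 window, on chromosome 15, held the most peaks and the one nearest the head of the list. That peak, at 83986574 to 83986723, stood in a run of 3 peaks and carried deposited values of 49 (first) and 50 (second). Of all 3579 listed peaks, 71 (1.98%) had a first value at least as high. The distance deposited with it was -11598 bp, which by the convention of HOMER places it upstream of a transcription start site (TSS). On the plus strand, the strand of Pnpla3 in RefSeq, this distance leads to a point at 83998246. A further peak of the pooled list, at 83998150 to 83998299, covers that point and has its centre 22 bp upstream of it. The next peak, at 83998967 to 83999116, has its centre 795 bp downstream. Neither of these peaks is listed. On the minus strand the same distance would lead to 83975050, where the nearest pooled peak is the peak itself, 11598 bp away.

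Thus, if the point is the Pnpla3 start, the window held a listed site 11.6 kb upstream and 2 sites outside the DBD-independent list, of which 1 covers the start and 1 lies 795 bp downstream of it. These 2 sites differed in list order. The peak over the point stood at position 8026 in run 125, where listed peaks had a median first value of 7.0. The peak 817 bp further on stood at position 1402 in run 96, where that median was 21.0. The last 2 peaks of the window, at 84026864 to 84027013 and at 84066138 to 84066287, were both listed, with deposited distances of 4275 and 3739 bp. Their first values were 9 and 6 and their second values 7 and 6, all below the list medians of 12 and 11. No other listed peak leads to the point of either. In RefSeq, 2 further genes on the plus strand, Samm50 and Parvb, follow Pnpla3, and on that strand the points of the 3 listed peaks lie 24.4 and 39.8 kb apart. Which gene each point belongs to was not tested, because no mm9 annotation was used here.

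The sequence before the RefSeq start of Pnpla3 is shown because a pooled peak covers the point that may be this start, and shorter stretches are shown for the members whose promoters held a searched motif. They come from RefSeq on build GRCm38.p6, not mm9, and are written 5′ to 3′ along the gene. Pnpla3 is on the plus strand (chr15:84167566-84167815, the 250 bases before the start). Plin2 is on the minus strand and is shown from 230 to 201 bases before the start, Cd36 on the minus strand from 240 to 211 bases, and Elovl5 on the plus strand from 173 to 144 bases. Capitals mark the hexamer AGGTCA, which reads TGACCT on the other strand, with the T that precedes it in Plin2, and the E-box CACGTG in Elovl5.
Pnpla3: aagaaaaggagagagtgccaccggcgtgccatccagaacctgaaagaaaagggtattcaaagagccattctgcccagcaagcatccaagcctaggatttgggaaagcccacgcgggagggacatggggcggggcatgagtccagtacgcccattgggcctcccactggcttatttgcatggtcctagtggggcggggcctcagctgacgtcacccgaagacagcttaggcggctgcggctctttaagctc
Plin2: tttcaggaccccTGACCTAagtcagacagc
Cd36: ctctgcactttaTGACCTgagattttcagg
Elovl5: actgccccgagaCACGTGaaccacaggaga

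In the 250 bases before the start, 6 of the 7 genes could be searched, with 7 promoters in all because RefSeq gives Cidec 2 of them. Scd1 was not among them. The hexamer AGGTCA was found, on either strand, in the promoters of Plin2 and Cd36, against 14.0% of all 32851 promoters in the table. The longer form TAGGTCA, which contains that hexamer, was found in Plin2, against 2.23% of all promoters. The E-box CACGTG was found in Elovl5, against 6.02%. The other letters searched on both strands had no match in a member promoter. These were AAN followed by TAGGTCA (0.177% of all promoters) and AAN followed by TGGGTCA (0.174%), both of the form read by Rev-erbα and the ROR receptors, and RevDR2, the hexamer AGGTCA repeated with 2 bases between (0.00913%). They also included CAAAGTCCA (0.384%), of the kind read by HNF4, ATCGAT (0.728%) and ATCAAT (6.72%), of the kind read by HNF6, and TCACNCCAC (1.05%), of the kind read by SREBP. A match is a description of the letters in this window only. Whether a pooled peak lies over the promoter of Plin2, Cd36 or Elovl5 was not tested. The peaks themselves could not be searched, because no genome of build mm9 was used here.

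The Scd1 window, on chromosome 19, held 2 peaks, and neither was listed. The first, at 44454659 to 44454808, stood at position 304 in a run of 16 peaks, of which 9 were listed with a median first value of 38.0. It was thus the member outside the DBD-independent list that stood nearest the head of the pooled list. The second, at 44481986 to 44482135, lay 27.3 kb to its right at position 2328. The nearest pooled peak beyond the window, at 44533462 to 44533611, was listed with values of 19 and 14, but its centre lay 3.54 kb past the limit.

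In the Elovl5 window, on chromosome 9, 1 of 3 peaks was listed. It lay at 77791263 to 77791412, at position 391, with deposited values of 27 (first) and 21 (second). A first value this high or higher was given to 400 of the listed peaks (11.2%). Its distance was 26165 bp, downstream of a point which, on the plus strand of Elovl5, is at 77765172. The nearest pooled peak to that point was the peak itself. If the point is the Elovl5 start, no pooled peak lay within 26 kb of it, in contrast to the Pnpla3 point. The other Elovl5 peaks were not listed. They lay at 77854509 to 77854658 (position 5101) and at 77878735 to 77878884 (position 875), and the first of them was 89.4 kb downstream of that point.

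The Fasn window, on chromosome 11, also held 3 peaks with 1 listed. The listed peak, at 120713453 to 120713602, stood at position 2290 with values of 16 and 12. Its distance of -27666 bp leads to 120685861 on the minus strand, the strand of Fasn in RefSeq. From there the nearest pooled peak, at 120665809 to 120665958, lay 19978 bp downstream, so no pooled peak was close to this point either. On the plus strand the point would be at 120741193, outside the window. The remaining Fasn peak, at 120712566 to 120712715, had its centre 887 bp from that of the listed peak but was not listed. These neighbours were 18 runs apart: the listed one was in run 105 and the other in run 123. The peak downstream of the minus-strand point was in run 123 as well, so these 2 unlisted peaks were tied.

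The windows of the storage genes differed in the number of sites. The Cidec window, on chromosome 6, held 4 peaks, and the Plin2 window, on chromosome 4, held 1. At Cidec, the peaks at 113388763 to 113388912 (position 2985) and at 113390325 to 113390474 (position 4668) were 1562 bp apart, and neither was listed. A further unlisted peak lay at 113433433 to 113433582, at position 8915. The listed peak, at 113328067 to 113328216, stood 60.7 kb to the left of the first of these. It had values of 7 and 5 and stood at position 9730, the last of all 21 members. It lay 34 bp downstream of its own point, so its point is at the left end of the window. The point's gene is not named in the files. In RefSeq, Rpusd3 and Ttll3 precede Cidec, and Jagn1 and Il17re follow it. The single Plin2 peak, at 86327755 to 86327904, stood at position 4356 and was not listed. The nearest pooled peaks beyond the Plin2 window lay 528 kb to the left and 123 kb to the right of its limits.

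The Cd36 window, on chromosome 5, was the longest, at 200 kb, and held 3 peaks, all unlisted. The peak at 17410657 to 17410806 stood at position 4368. The other peaks, at 17430103 to 17430252 (position 6502) and at 17430791 to 17430940 (position 8235), formed a pair 688 bp apart in runs 121 and 125. With the Plin2 and Scd1 windows, which held 1 and 2 peaks, 6 peaks came from windows without a listed peak. With 30.4% of all pooled peaks listed, nothing is read from the lack of a listed peak in windows this small.

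**Figure D3:**
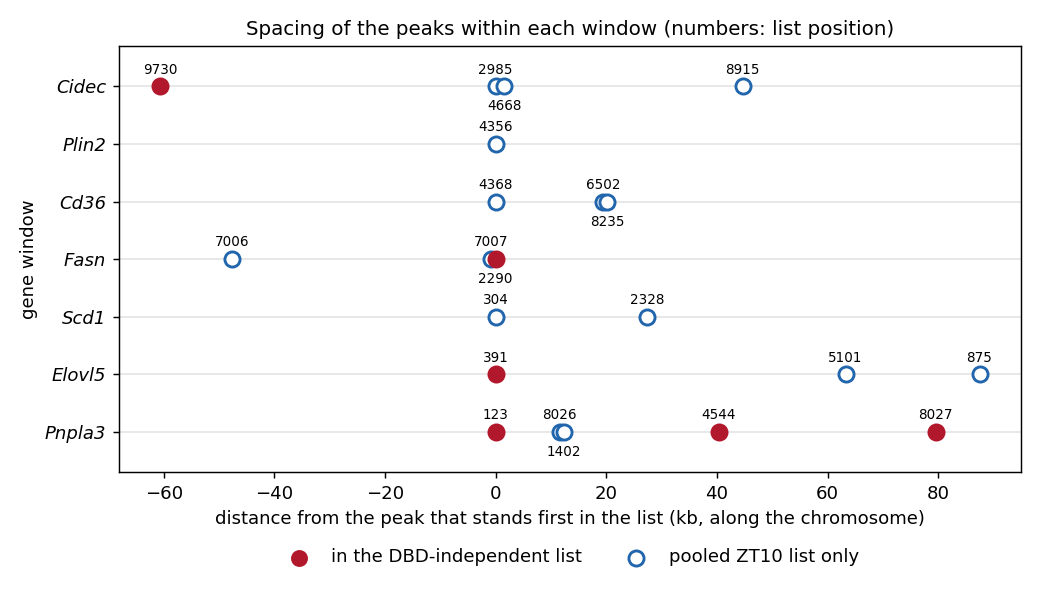
Distance of each peak from the peak of its window that stands first in the pooled list (horizontal axis, kb along the chromosome), by gene window (vertical axis), with the list position printed at each point. Filled points are listed peaks and open points are in the pooled list only. Pairs under 2 kb apart are seen at Cidec, Cd36, Fasn and Pnpla3.

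Over all 7 windows the share of listed peaks was close to that of the whole list. It was 28.6% (6 of 21 peaks, 95% Wilson interval 13.8 to 49.96%), against 30.4% of all pooled peaks. With each member given the share of listed peaks in its own run, 6.99 listed members would have been counted in place of the 6. The planned comparison cut the list into sections of 10% of its rows. With the share of its own section given to each member, the count would have been 7.46 (35.5% of the members). Both kinds of share include the member itself. Of the 6 listed members 3 came from the Pnpla3 window, and without it the share was 18.8% (3 of 16). The interval includes the share of the whole list. It covers counting error only and treats the peaks as separate, although some form close pairs within a window, so it is not a test.

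Sites in these windows stood somewhat early in the list and often close to a second site. The median position was 4544, against 5884 for the whole list, and 4 of the 21 peaks were in the first 1177 rows, which are 10% of it. In the last 10% there were 0 members. Another pooled peak lay within 2 kb of 8 of the 21 members (38.1%), against 11.7% of all pooled peaks. The 8 members are 4 pairs, so they are not 8 separate observations, and no interval is given. In 3 of the 4 pairs neither peak was listed and in 1, at Fasn, only 1 peak was. Of the 711 neighbouring pairs of the whole list under 2 kb apart, neither peak was listed in 42.6%, 1 peak in 44.3% and both in 13.1%. The windows held 21.4 peaks per Mb, against 4.61 per Mb over the span of the whole list. The genes were proposed with the lists known, so the positions, pairs and density are a description of these windows only.

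The 6 listed members were spread over the ranks of their list by first value. Of all listed peaks 1.98% had a first value at least as high as the highest member, and 90.8% as the lowest. In falling order the members' first values were 49 in the Pnpla3 window, 27 in the Elovl5 window and 16 in the Fasn window. The lower ones were 9 in the Pnpla3 window, 7 in the Cidec window and 6 in the Pnpla3 window. Thus 3 lay above the list median of 12 and 3 below it, and the range of the whole list was 1 to 103. The second value was lower than the first in 4 peaks, equal in 1 and higher in 1. The ratio of second to first ran from 0.714 at Cidec to 1.02 at the upstream Pnpla3 peak, with a list median of 0.889. The values were deposited without a unit and cannot be assigned to a genotype. By distance, 1 of the 6 lay within 1 kb of its point (29.98% of all listed peaks did) and 3 lay beyond 10 kb (47.2% of all listed peaks did). The median absolute distance was 7.94 kb against 8.70 kb in the whole list, and 18.9 kb when the windows were narrowed by 20 kb on both sides, which left 4 listed peaks. Upstream of their point were 2 peaks, at Fasn and Pnpla3, and downstream 4.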

How the data were processed

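The data were 2 peak lists deposited for the whole series, without header. The submitters' processing notes name build mm9, HOMER and Bowtie. For versions, peak-calling settings, pooled samples and the rule behind the second list, nothing is given in the sources used here. The authors deposited chromosome, start and end of 150 bp peaks, and for the second list also an identifier, a signed distance in bp and 2 whole numbers of unstated unit, treated as a deposited score. Coordinates are printed 1-based.

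Peaks were assigned to a window by their centre and matched between lists at an overlap of 1 bp. All 3579 listed peaks had identical limits in the pooled list. Points were computed as centre minus distance (plus strand) or plus distance (minus strand), can be off by 1 bp, and were called shared within 1 bp. Intervals are Wilson intervals at 95%. No test was made. The planned fit of WT against HNF6 KO needs values per sample and was not run. All peaks of the windows are described, and neighbouring genes (at most 2 protein-coding genes on each side) come from the RefSeq table of GRCm38.p6, whose gene coordinates were not used. Promoters were matched by symbol. Of a list of 40 further lipid genes, 31 matched by symbol. This coverage was under the minimum set for a check over a gene list, so the check is void and its motif counts are not used. The members, windows and lists were chosen with earlier results of these data known, and the runs and the 2 kb pairs were examined after seeing the data. Routines were tested on simulated data: 60 simulated levels over 11767 peaks were recovered as runs. The simulated levels were drawn evenly, while the smallest run of the real list held 1 peak. Whether small neighbouring levels at the head of the list merge into 1 run was not tested. Software was SciPy 1.17.1, pandas 2.3.3, numpy 2.4.6 and matplotlib 3.10.9 under Python 3.11.15.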

Additional observations from a re-analysis of the deposited data

How the results depend on the processing

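Of 44 alternatives to 6 results, 44 stayed within the Wilson interval of a share, within 1 SD over the members for a median, or within 1.5 times the count of peaks. With 21 peaks these margins are wide: a median distance of 18.9 kb with narrowed windows, against 7.94 kb, counted as within them. For the neighbour share the interval treats paired peaks as separate. The comparison is therefore a weak check. The number of peaks was 23 with windows widened by 50 kb and 15 with windows narrowed by 20 kb. The listed share was then 34.8% and 26.7%, and between 18.8% and 33.3% with 1 window left out. It was 30.8% among the 13 members of the first 50% of the list. Over all pooled peaks the listed share fell along the list, for example from 45.1% in run 96 to 9.96% in run 129. The 30.4% of the whole list is therefore not the share to set beside this value. That of the whole first 50% was not computed. In runs 91 to 119, at positions 1018 to 5802, the listed share ran from 32.1% (run 116) to 56.3% (run 93). Each of these runs thus had a higher listed share than the 30.8% of the members. With 13 peaks, nothing is read from this. Other overlap rules changed no membership, and could not, because all listed peaks had identical limits in the pooled list. The median position lay between 4368 and 4668 with 1 window left out. A neighbour was found for 6 members within 1 kb (7.25% of all peaks) and for 8 within 5 kb (19.6%). The alternatives on runs and neighbours were chosen after seeing the data. No paired analysis was possible because neither file separates the replicates, and for the same reason no replicate was left out. Depth per sample is unknown, so the lack of a peak is a lack of a call in these lists.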
